A study of Mus musculus with 20 samples.

Results

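The replication-dependent histone genes were followed across 20 Her2/neu-driven breast tumors. These were the rows of the count table named Hist1h to Hist4h whose mean level over the tumors reached 0.5 CPM, the counts on a gene scaled to libraries of equal total. Of 43346 genes in the table, 70 carried such a name and 26 reached the minimum: 4 encoded H1, 4 H2A, 7 H2B, 3 H3 and 8 H4. The last 2 genes above the minimum were Hist1h4f at 0.610 CPM and Hist2h3c2 at 0.519 CPM, and the first 2 below it were Hist1h3d at 0.403 CPM and Hist1h2bh at 0.387 CPM.

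Each tumor came from a separate female [BALB/c-neuT x FVB/J] F1 mouse of at most 20 weeks of age. All the mice had a neuT transgene-positive BALB/c father and a wildtype FVB/J mother, and all the tumors arose spontaneously from the rat neu oncogene (HER2), which is known as a transgene driven by a mammary tumor virus promoter. The titles divide the tumors into 9 Lo and 11 Hi, what these words stand for is not given in the sources used here, and no normal mammary gland is analysed here. Total RNA from pieces of frozen tumor was made into libraries with a kit that selects poly(A) RNA. Total counts ranged from 38765682 to 65465755 per tumor. Epithelial markers summed to between 2751 and 4405 CPM in every tumor, and leukocyte markers to between 111.7 and 178.1 CPM.

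Replication-dependent histone genes supply the proteins that package newly copied DNA. They are transcribed in S phase from clustered genes without introns, and they are the only protein-coding messages of animal cells that normally end without a poly(A) tail. Their 3′ end is instead a short stem-loop, which is bound by the stem-loop binding protein Slbp and cut just downstream of it with the help of the U7 small nuclear RNA. Some histone genes also have a poly(A) site beyond the stem-loop, which cells that no longer divide can use. A poly(A)-selecting library therefore records both the tailed transcripts and whatever untailed RNA was carried through, of which ribosomal RNA (rRNA) is by far the most abundant in a cell.

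The members lay in the known clusters, with 17 on chromosome 13, 6 on chromosome 3, 2 on chromosome 11 and 1 on chromosome 6 (mm10). The stem-loop, with a stem of 6 base pairs and a loop of 4 bases, was searched as a single sequence pattern of 16 bases. Pairing of the stem was not checked in the search, and a stem-loop of another sequence would be missed. The transcripts were those of GENCODE M21, which has the same coordinates as mm10 but is not the annotation the counts were made with. The pattern was found in 18 of the 26 members, each time within the span the authors counted, and in 26 of the other 44 histone rows. Hist1h2bm among the members and Hist1h2bh among the other rows had no transcript there to search. Over all genes of that annotation the pattern was found in 86 of 55450, or 0.155%. The 6 forms found in the members are shown because this element defines the family, with the stem in capitals and the loop in lower case.

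Form of 9 members, Hist1h1c and Hist1h1e among them: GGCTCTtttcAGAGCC
Form of 4 members, among them Hist1h4d (chr13:23581950-23581965, plus strand) and Hist1h4f (chr13:23551291-23551306, minus strand): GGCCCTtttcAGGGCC
Form of Hist1h4i and Hist2h4: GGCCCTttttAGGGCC
Form of Hist1h4j: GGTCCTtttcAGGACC
Form of Hist1h3e (chr13:23561903-23561918, minus strand): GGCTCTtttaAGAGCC
Form of Hist2h2ac: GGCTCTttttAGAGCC

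The members differed in how far the counted gene ran beyond this element. In 7 members the counted span ended 25 to 57 bases after the stem-loop, as in Hist1h4d with 25 bases and Hist1h1e with 27. In 11 members it ran on for 169 to 2445 bases, as in Hist1h1c with 840, Hist3h2a with 1643 and Hist4h4 with 2445. No stem-loop of this form was found in the transcripts of 7 members, which included Hist1h2bc and Hist2h2bb, and Hist1h2bm was not searched. A missing match does not show that a gene lacks the element, because an annotated transcript that stops short of it cannot match. The counted exons of Hist1h4k, Hist1h2al and Hist1h2ak, for instance, cover only 312, 378 and 393 bases. Whether the searched transcripts reach beyond the coding sequence was not tested.

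Promoters of 22 of the 26 members were matched in RefSeq (GRCm38.p6, 250 bases before to 50 after each start) and searched on both strands for short motifs, none of which contains another. The TATA box, TATAAA, was present in 12 of 22 (54.5%), against 13.6% of 32851 promoters of the same length. CCAAT was present in 16 of 22 (72.7%) against 37.4% of all promoters, and of the 7 H4 promoters 1 held it. The octamer ATTTGCAT was present in 5 of 22 (22.7%) against 1.74%, in 2 of 3 H2A and 3 of 5 H2B promoters. AAACACA, known from H1 promoters, was present in all 4 H1 promoters and in 1 H2B promoter, against 7.18% of all promoters. The E2F site TTTGGCGC was searched too and was present in 0 of 22, against 0.514% of all promoters. These are matches of letters only. The promoters of Hist1h1c and Hist1h1e are shown because one of these H1 paralogs was called in the results that follow and the other was not, with matched motifs in capitals.

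Hist1h1c, H1 (chr13:23738557-23738856, plus strand): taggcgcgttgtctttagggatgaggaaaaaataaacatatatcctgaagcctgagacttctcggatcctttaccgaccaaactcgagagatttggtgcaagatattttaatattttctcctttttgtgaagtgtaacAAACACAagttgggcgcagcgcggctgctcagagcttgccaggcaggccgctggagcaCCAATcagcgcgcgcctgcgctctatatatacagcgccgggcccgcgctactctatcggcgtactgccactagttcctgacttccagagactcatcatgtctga
Hist1h1e, H1 (chr13:23622509-23622808, minus strand): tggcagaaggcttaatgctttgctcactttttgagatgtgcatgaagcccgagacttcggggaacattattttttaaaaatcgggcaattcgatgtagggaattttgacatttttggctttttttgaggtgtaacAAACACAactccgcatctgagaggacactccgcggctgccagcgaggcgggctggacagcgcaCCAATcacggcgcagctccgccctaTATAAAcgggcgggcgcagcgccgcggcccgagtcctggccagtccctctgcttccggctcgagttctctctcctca

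Both hold AAACACA and CCAAT in the same order, and the exact TATAAA was found in Hist1h1e and not in Hist1h1c.

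The histone genes were weakly represented in these libraries. Together the 26 members summed to between 94.7 and 182.6 CPM per tumor, with a median of 117.8. Hist1h1c alone held 39.3% of these counts, a share that also depends on gene length, and the leading 3 genes held 60.6%. The number of counts behind a value ranged from 4 in the thinnest library of Hist1h2ak to 3575 in the fullest library of Hist1h1c, so that members near the minimum carried a large counting error.

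Levels between genes are compared as RPKM, which divides the CPM by the counted exon length in kilobases. Among linker histones, which bind DNA between nucleosomes, Hist1h1c was highest at 31.4 ± 8.64 RPKM (SD, n = 20), followed by Hist1h1e at 9.70 ± 3.17 and Hist1h1d at 4.90 ± 1.53. Among H2A genes, Hist3h2a stood at 6.17 ± 1.18 RPKM, Hist1h2al at 3.66 ± 1.41 and Hist1h2ak at 1.66 ± 0.791. Among H2B genes, Hist1h2bc stood at 18.1 ± 5.47 RPKM, Hist1h2bg at 2.51 ± 1.496 and Hist1h2bm at 2.05 ± 1.24.

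The H3 genes were the lowest of the 5 types, with a summed mean of 3.60 CPM. Hist1h3e stood at 1.41 ± 0.643 RPKM, Hist2h3c1 at 1.03 ± 0.270 and Hist2h3c2 at 0.509 ± 0.135. The leading H4 genes were Hist1h4i at 5.22 ± 1.71 RPKM, Hist1h4d at 4.67 ± 2.63 and Hist1h4h at 3.48 ± 1.48. When all members were put in order of RPKM, 4 of the 25 steps between neighbours were larger than the larger SD of the pair. These were the steps from Hist1h1c to Hist1h2bc, to Hist1h1e and to Hist3h2a at the top, and the step from Hist1h2be to Hist2h3c2 near the bottom, and the other 21 neighbours did not differ beyond their spread.

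Some of these values may hold reads that cannot be assigned to one gene. Overlaps were taken between whole gene spans, and shared exons or reads were not examined. Hist3h2a lies whole within the span of Trim17, and Hist2h3c1 within that of Gm20634, over 2146 and 1820 bases. Their mean levels were 13.2 CPM beside 12.3 CPM for Trim17, and 1.88 CPM beside 2.68 CPM for Gm20634. Hist2h2bb shares 569 bases of span with Gm20628 and Hist1h2be shares 320 with Gm11398. The strand setting of the counting is not given in the sources used here, so the values of these members are uncertain. Nearly identical coding sequences within each histone type add a further uncertainty, because the handling of reads that fit several genes is not given either.

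**Figure D1:**
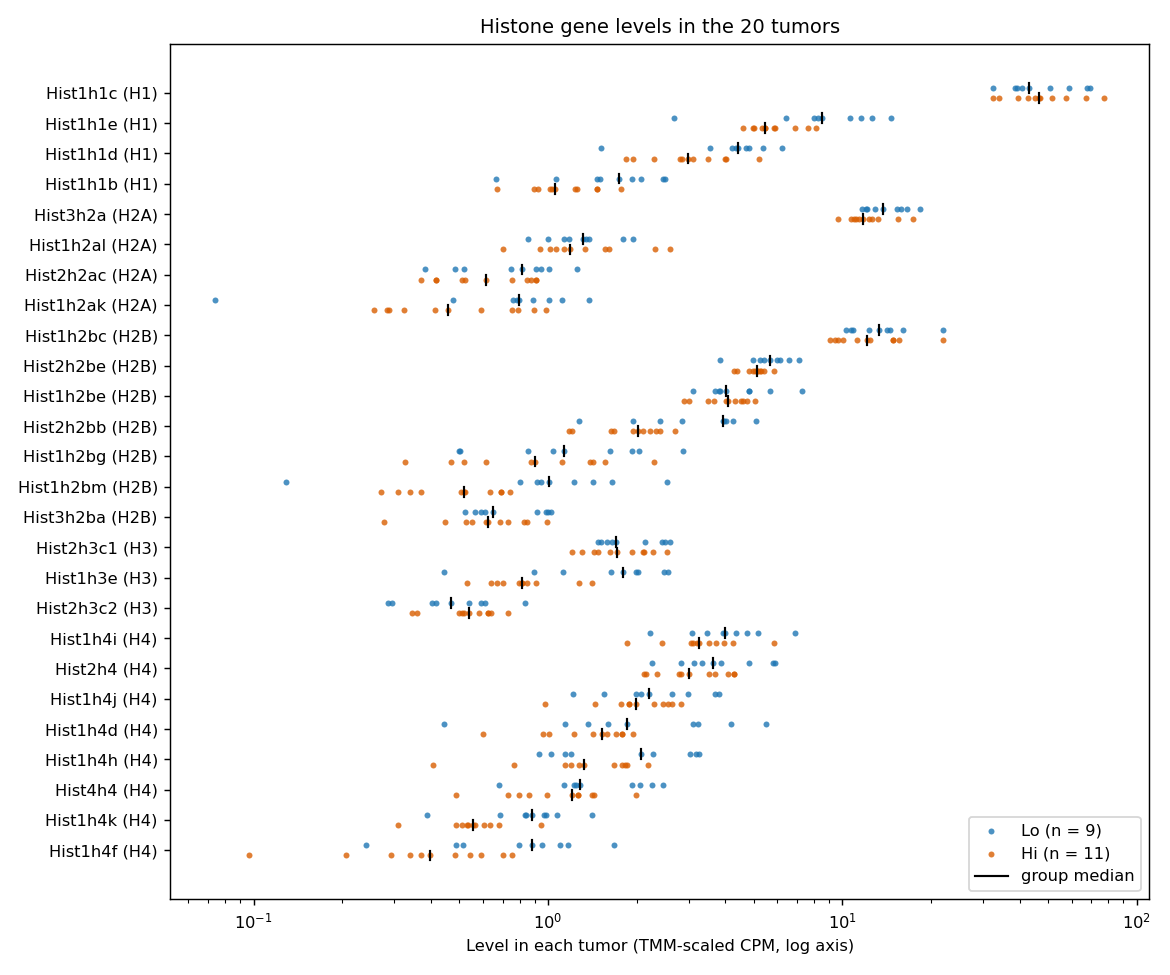
Level of each of the 26 histone genes (TMM-scaled CPM, log axis) in each tumor, 1 point per tumor, for Lo (n = 9) and Hi (n = 11), with the group median as a black bar, ordered by histone type. The groups overlap in every gene shown (the share over all genes was not counted), and Hist1h1c has the highest counts at 32.4 to 77.6 CPM.

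The genes differed in how much they varied from tumor to tumor. After TMM scaling, which corrects library sizes for unequal composition, the coefficient of variation over the 20 tumors ranged from 14.3% for Hist2h2be to 69.5% for Hist1h2bm, with a median of 35.3%. Members whose counted span ended close after the stem-loop had a median of 47.7%, and those with a longer 3′ part had 29.8%. The former were also lower in level, with a median of 1.68 CPM against 2.24 CPM, and the part of counting error in this difference was not tested.

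The members tended to be high and low in the same tumors. Over the 325 pairs the median Pearson's r of log2 CPM was 0.36, ranging from -0.31 to 0.89, against -0.004 over all pairs of the 18883 genes tested. Within types the median was 0.54 for the 4 H1 genes, 0.49 for the 8 H4 genes, 0.35 for H2B, 0.14 for H2A and 0.12 for H3. The 44 replication genes had a median r of 0.57 among themselves. The 11 histone variant genes described below had 0.31, ranging from -0.65 to 0.77, so such a median was not particular to the members. All these pairs share the same 20 libraries.

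To ask whether histone transcripts followed DNA replication, each tumor was given a replication score, the mean standardized log2 CPM of 44 genes of replication origins, forks and nucleotide supply, with no histone among them. A slope on this score was fitted to every gene with edgeR's quasi-likelihood test and is given as the log2 change per 1 SD of the score over the 20 tumors. No histone gene passed the threshold of an adjusted P of 0.05, where 0.916% of 18883 genes did (173 genes, 0.688% higher and 0.228% lower). At an unadjusted P under 0.05 there was 1 member (3.85%), Hist1h1d, against 12.4% of all genes. The members' median slope was 0.04, and single slopes lay between -0.14 and 0.27. On a score of the 25 mitosis genes instead, no member was called either, but the median was 0.14 and 7 members (26.9%) had an unadjusted P under 0.05, against 8.97% of all genes. In a bulk tumor, fewer cells of a type and less RNA per cell cannot be told apart.

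The largest positive slopes belonged to Hist1h1d at 0.27 ± 0.10 (SE, adjusted P = 0.280), Hist1h1b at 0.18 ± 0.12 (adjusted P = 0.551) and Hist1h2al at 0.17 ± 0.10 (adjusted P = 0.533). The largest negative ones belonged to Hist1h4d at -0.14 ± 0.20, Hist2h3c2 at -0.05 ± 0.10 and Hist2h3c1 at -0.03 ± 0.08. Hist1h1d ranged from 1.51 CPM through a median of 4.43 to 6.21 in Lo, and from 1.84 through 2.98 to 5.18 in Hi. With the rRNA and small RNA shares as further terms, Hist1h1d was the 1 member called, among 248 of all 18883 genes.

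The score itself was built from the 44 replication genes, so their 28 calls, all higher, describe its make-up and are no finding. Mcm5, a subunit of the replicative helicase, had a slope of 0.23 ± 0.02, Pcna, the sliding clamp, 0.22 ± 0.03, and Rrm2, a subunit of ribonucleotide reductase, 0.22 ± 0.03. Of 25 mitosis genes 9 rose with the score and none fell.

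Genes that serve histones as proteins did move with replication in part. Of 15 histone chaperones and modifiers of new histones, 4 rose, none fell and 11 did not pass. Asf1b, which hands H3 and H4 to the assembly factors, had a slope of 0.23 ± 0.04 (adjusted P = 0.00344). The subunits of chromatin assembly factor 1, Chaf1a at 0.20 ± 0.02 and Chaf1b at 0.14 ± 0.03, also passed (adjusted P = 1.12e-04 and 0.0171), as did Hat1, the acetyltransferase of new H4, named after its value was seen, at 0.21 ± 0.04 (adjusted P = 0.00322).

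Of the 11 histone variants, most of which are made with a poly(A) tail throughout the cell cycle, 1 rose and none fell. It was H2afz, which marks promoters, at 0.15 ± 0.03 (adjusted P = 0.0238). H2afx, the damage-marking H2A, which is known to make both a stem-loop message and a tailed one, had 0.15 ± 0.05 (adjusted P = 0.190), and Cenpa, the centromeric H3, 0.15 ± 0.06 (adjusted P = 0.324). H1f0 at -0.02 ± 0.05, H1fx at 0.18 ± 0.08, H3f3a at -0.04 ± 0.06 and H3f3b at 0.05 ± 0.04 did not pass either.

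Most of the machinery that makes histone messages did not pass the test. Of 23 genes of histone RNA transcription and processing, 2 rose with the replication score, none fell and 21 did not pass. The 2 were Ccne1 and E2f1, general regulators of entry into S phase, named after their values were seen. Slbp, the stem-loop binding protein, had a slope of 0.08 ± 0.03 (adjusted P = 0.154), and Npat, the activator of histone gene transcription, 0.00 ± 0.04. Casp8ap2 at -0.06 ± 0.05, Lsm10 at 0.02 ± 0.06 and Lsm11 at 0.08 ± 0.04, of the histone locus body and the U7 particle, and Eri1, the nuclease that trims the stem-loop, at 0.05 ± 0.04 did not pass.

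Muscle markers, 4 genes, had a median slope of 2.47 on the replication score and none passed, with the lowest adjusted P at 0.314. Their sum ranged from 1.23 to 431.5 CPM in Lo and from 0.854 to 737.5 CPM in Hi, and their part in the values above was not tested.

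The second measure was the share of all counts on Yam1 and AY036118, which overlie an annotated rRNA gene on chromosome 17. Its median over all 20 tumors was 14.7%. Among the Lo tumors this share ranged from 6.29% in Lo tumor 1 through a median of 19.6% to 27.7% in Lo tumor 6. In Hi it ranged from 10.1% through 14.0% to 20.4%. One SD of the share over the 20 tumors was 1.41-fold, or 0.50 on the log2 scale.

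On this measure 6 of the 26 histone genes rose and none fell, where 0.122% of 18883 genes passed in either direction (23 genes, 0.101% higher and 0.0212% lower). They were Hist1h3e, Hist1h4d, Hist1h1e, Hist2h2bb, Hist1h4f and Hist1h2bm, of which Hist2h2bb was named after its value was seen. Of the members, 16 (61.5%) had an unadjusted P under 0.05, against 10.8% of all genes tested, and 23 had a positive slope, and the median was 0.24 against 0.001 over all genes tested. Yam1 and AY036118 are themselves 2 of the 23 genes, since they make up the measure.

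**Figure D2:**
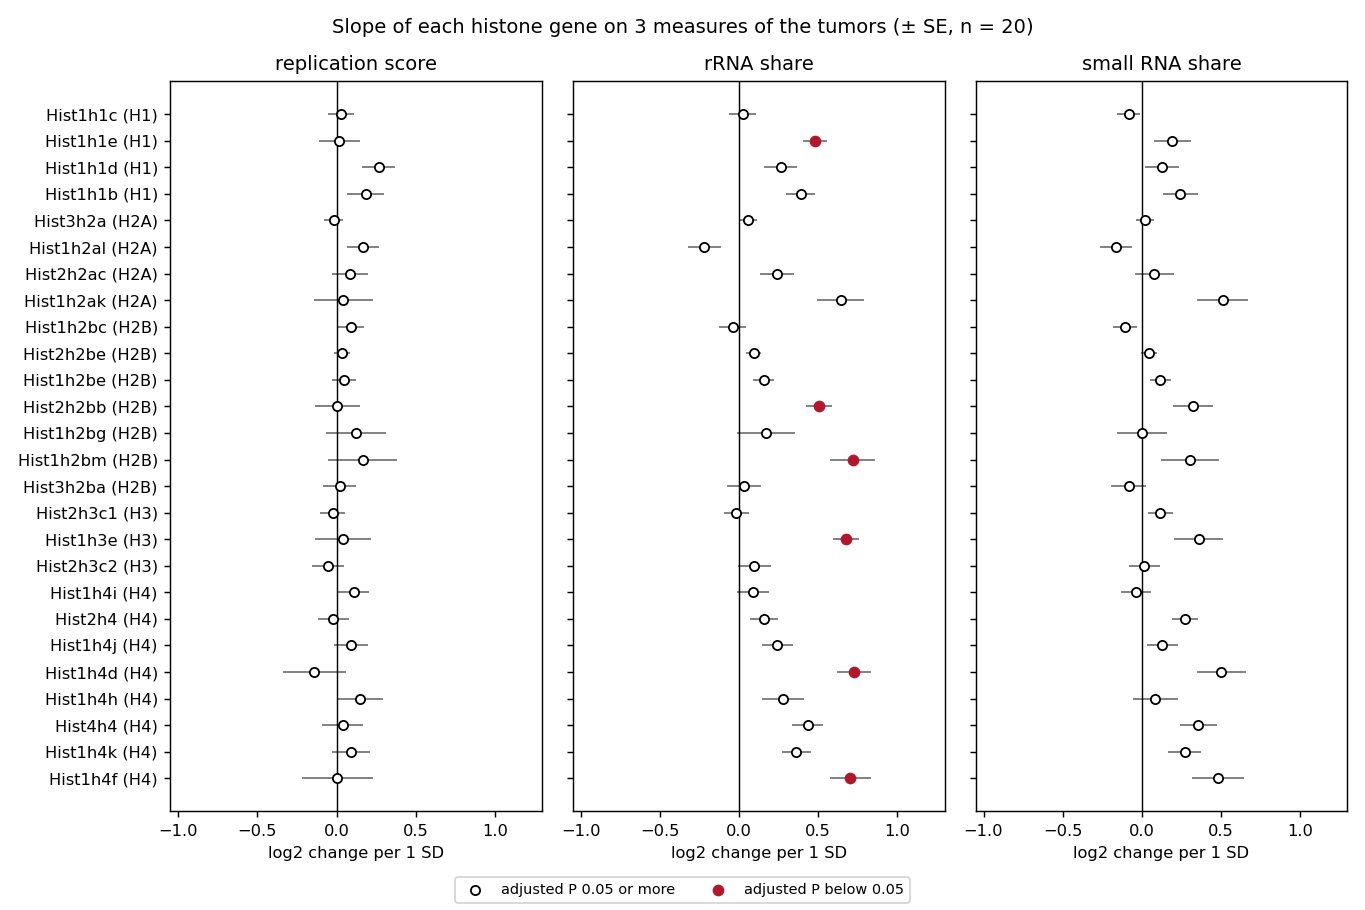
Slope of each of the 26 histone genes (log2 change per 1 SD, with SE) on the replication score, the rRNA share and the small RNA share over the 20 tumors; filled red points passed an adjusted P of 0.05. The 6 filled points are all in the rRNA panel, at 0.48 to 0.73, while slopes on the replication score stay between -0.14 and 0.27.

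Hist1h3e encodes H3, a core of the nucleosome, and its CPM ran from 0.443 through a median of 1.80 to 2.56 in Lo and from 0.532 through 0.815 to 1.404 in Hi. The lowest and the highest tumor, Lo tumors 1 and 6, were also the lowest and highest in rRNA share. Its slope was 0.68 ± 0.08 (adjusted P = 2.13e-04).

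Hist1h4d, an H4 gene whose counted span ends 25 bases after the stem-loop, ran from 0.443 CPM through 1.85 to 5.52 in Lo. In Hi it ran from 0.601 through 1.53 to 1.95. Its slope was 0.73 ± 0.11 (adjusted P = 0.00231), with Lo tumors 1 and 6 again at the ends. Hist1h4f, another H4 gene with the same stem-loop, ran from 0.240 CPM through 0.884 to 1.68 in Lo and from 0.0960 through 0.397 to 0.754 in Hi. Its slope was 0.70 ± 0.13 (adjusted P = 0.0290).

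Hist1h1e, the linker histone H1.4, ran from 2.68 CPM through 8.501 to 14.6 in Lo and from 4.60 through 5.45 to 8.15 in Hi. The groups overlapped, and 1 Lo tumor lay below all the Hi tumors. Its slope was 0.48 ± 0.08 (adjusted P = 0.00477).

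Hist2h2bb ran from 1.27 CPM through 3.91 to 5.09 in Lo and from 1.18 through 2.02 to 2.69 in Hi, with a slope of 0.50 ± 0.08 (adjusted P = 0.00666). Gm20628, whose span overlaps it, rose as well, by 0.70 ± 0.10 per SD, and whether the 2 genes share reads was not tested. Hist1h2bm, an H2B gene, ran from 0.129 CPM through 1.004 to 2.54 in Lo and from 0.270 through 0.519 to 0.740 in Hi. Its slope was 0.72 ± 0.14 (adjusted P = 0.0453), and its values rest on 7 to 103 counts per tumor.

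Several of the most abundant histone genes had slopes near 0. Hist1h1c had 0.02 ± 0.08, Hist1h2bc -0.04 ± 0.08, Hist3h2a 0.06 ± 0.06 and Hist1h4i 0.09 ± 0.10. The largest negative slope was that of Hist1h2al at -0.22 ± 0.10 (adjusted P = 0.451), and Hist2h3c1 had -0.02 ± 0.08. Between these lay Hist1h1d at 0.26 ± 0.10, Hist1h4h at 0.28 ± 0.13 and Hist1h2bg at 0.17 ± 0.18, none of which passed. Hist1h2ak had 0.64 ± 0.15 with an adjusted P of 0.114.

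Hist1h1c ran from 32.5 CPM through 43.1 to 69.3 in Lo and from 32.4 through 46.5 to 77.6 in Hi. Its highest tumor was Hi tumor 7, with a low rRNA share of 10.6%, and its levels in both groups covered almost the same range. Hist1h1c and Hist1h1e, whose promoters are printed above, had slopes of 0.02 ± 0.08 and 0.48 ± 0.08, and the difference between them was not tested.

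**Figure D3:**
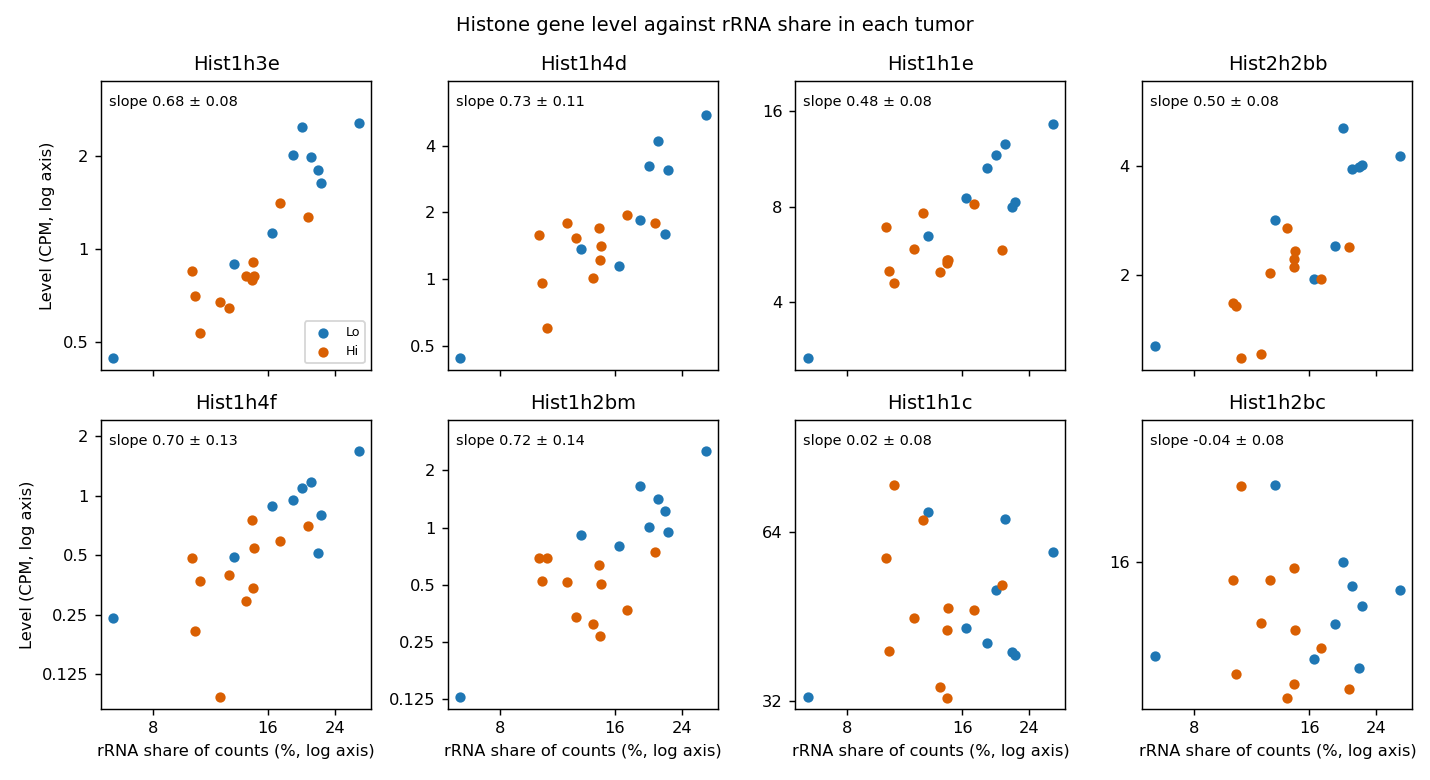
Level of 8 histone genes (TMM-scaled CPM, log axis) against the rRNA share of counts (%, log axis), 1 point per tumor, Lo in blue and Hi in orange, with the slope ± SE per 1 SD. The first 6 panels rise toward the Lo tumors of highest share, and Hist1h1c and Hist1h2bc, the 2 genes of highest RPKM, do not.

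The slopes were also set beside the form of the 3′ end. The 7 members counted to within 57 bases of the stem-loop had a median slope of 0.28, between 0.17 and 0.73, with 3 called. The 11 with a longer 3′ part had a median of 0.10, between -0.02 and 0.68, with Hist1h3e as the 1 called. The 7 searched without a match, which may still hold the element, had a median of 0.36, between -0.22 and 0.64, with Hist2h2bb as the 1 called. Hist1h2bm, which was not searched, had 0.72. The ranges overlap and no test was made between the classes. By type, the median slope was 0.33 for H1, 0.32 for H4, 0.16 for H2B, 0.15 for H2A and 0.10 for H3.

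Histone rows below the minimum rest on fewer counts. Of these 44 rows, 16 passed the filter on low counts, and their median slope on the rRNA share was 0.52. None of the 16 was called by edgeR and 6 by DESeq2, which called 135 of 18883 genes. Without the filter all 44 rows were tested, with a median of 0.47 and none called. Their sum ranged from 2.93 CPM in Lo tumor 1 to 15.2 CPM in Lo tumor 6, and from 4.63 to 8.49 CPM in Hi.

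Other RNAs of which at least 1 form has no poly(A) tail were listed for comparison as RNAs without a tail. Of these 8, 6 passed the filter on low counts and were tested. The counts of a gene cover all its forms, tailed ones included. Rn7sk, the RNA polymerase III transcript that holds P-TEFb inactive, rose by 0.70 ± 0.10 per SD of the rRNA share (adjusted P = 8.76e-04). It ran from 5.27 CPM through a median of 16.7 to 44.6 over the tumors. Rmrp, the RNA of RNase MRP, had 0.57 ± 0.13 (adjusted P = 0.0916), and Rpph1, the RNA of RNase P, had 0.41 ± 0.09 (adjusted P = 0.0673). Malat1, a nuclear RNA that ends in a triple helix, had 0.15 ± 0.11. The remaining members of the list were Terc, the telomerase RNA, at 0.10 ± 0.11, and Neat1, a nuclear RNA of paraspeckles, at -0.09 ± 0.13, both named after their values were seen. The median of the list was 0.28. Rn7sk, Rmrp and Rpph1 are also among the rows of the small RNA share used next.

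The replication and histone-related lists had medians between -0.02 and 0.10 on the same measure. The medians were -0.02 for replication genes, 0.10 for mitosis genes, -0.01 for histone RNA processing, -0.02 for chaperones and 0.01 for histone variants, and none of their genes passed. Slbp had -0.02 ± 0.03 and Npat 0.05 ± 0.03, H2afz had 0.01 ± 0.05 and H3f3a 0.07 ± 0.05. Epithelial, leukocyte, fibroblast and endothelial markers had medians of -0.01, -0.05, 0.00 and 0.07, with none called. Adipocyte markers had 0.27 and muscle markers 0.70, also with none called. The 5 adipocyte markers summed to between 5.74 and 50.3 CPM in Lo and between 5.80 and 53.7 CPM in Hi, and Plin1 and Lep were at 0 in at least 1 tumor. The part of these cells in the histone slopes was not tested.

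**Figure D4:**
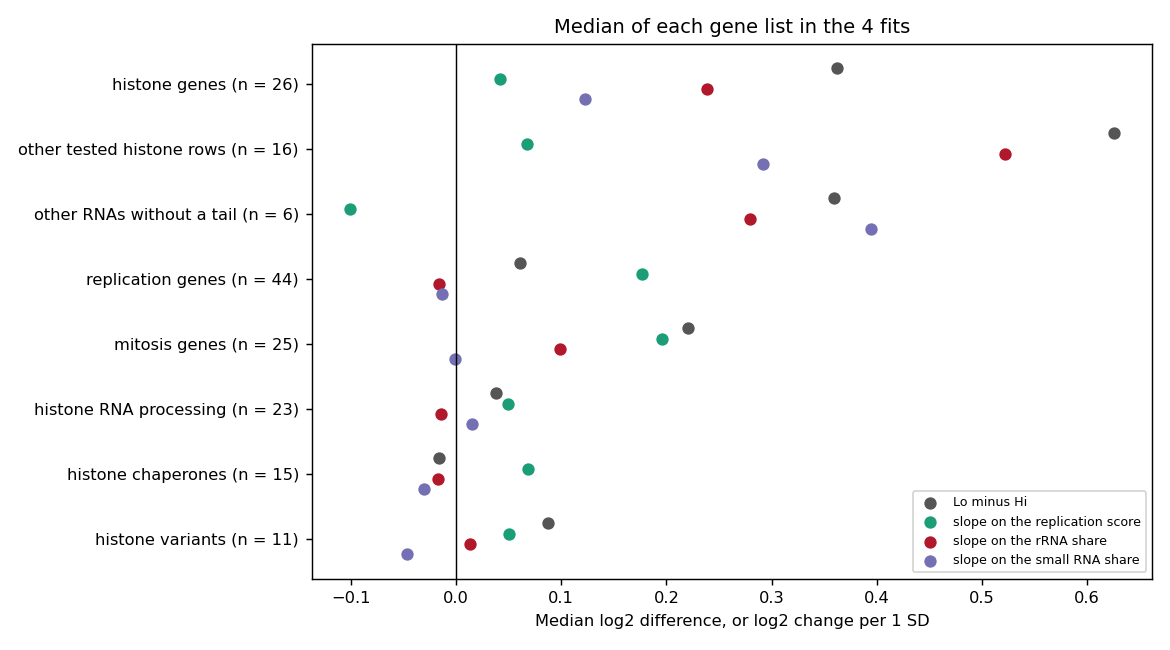
Median over each gene list of the log2 difference between Lo and Hi and of the log2 change per 1 SD of the 3 measures; the number in brackets is the number of genes tested. On the rRNA share the 26 histone genes lie at 0.24, the 16 other histone rows at 0.52 and the 6 other RNAs without a tail at 0.28, and the replication, mitosis, processing, chaperone and variant lists between -0.02 and 0.10; of the marker lists, which are not plotted, adipocyte markers lie at 0.27 and muscle markers at 0.70.

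The number of members called on the rRNA share depended on the tumors at the ends of its range. Without Lo tumors 1 and 6, the 2 farthest from the median, 1 member was called, Hist1h3e, at 0.77 ± 0.12 (adjusted P = 0.00950). Of all 18883 genes 3 were called in that fit, against 23 with all 20 tumors. The median slope over members was then 0.20, against 0.24 with all 20 tumors, and 21 slopes were positive, against 23. The members' median SE was 0.13, against 0.10. With the Lo or Hi label as a term 7 of 18883 genes were called. Of these 1 was a member, Hist1h3e, at 0.59 ± 0.08 (adjusted P = 0.00412). When each of the 20 tumors was left out in turn, 3 to 9 members were called, among 11 to 23 of all 18883 genes. The fewest members were called without Lo tumor 1 and the most without Hi tumor 1. Hist1h3e, Hist1h4d and Hist2h2bb were called in all 20 of these fits, Hist1h1e in 19, all except the one without Lo tumor 1, Hist1h4f in 14 and Hist1h2bm in 7.

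Within each label the data were thinner. Among the 9 Lo tumors no member was called, 11 had an unadjusted P under 0.05 (10.1% of all genes did) and the median slope was 0.23. Among the 11 Hi tumors, whose share spans a narrower range, no member was called, 3 had an unadjusted P under 0.05 (9.51% of all genes did, so this count is near the background) and the median slope was 0.08. Hist1h3e had 0.62 ± 0.11 within Lo and 0.50 ± 0.16 within Hi, while Hist1h1e had 0.54 ± 0.08 and 0.09 ± 0.13, and Hist1h2bm 0.85 ± 0.15 and -0.08 ± 0.24. The difference of slopes between the labels was tested with an interaction term and passed for none of 18883 genes (1682 at an unadjusted P under 0.05, 4 members among them), and the lowest adjusted P of a member was 0.548.

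The third measure was the share of counts on 148 rows of small nuclear, nucleolar and other small noncoding RNAs. It ranged from 96.3 through a median of 132.1 to 157.4 CPM in Lo and from 65.0 through 107.2 to 159.0 CPM in Hi. Rmrp held 16.01% of it and Rn7sk 15.8%. No histone gene was called, where 0.0212% of 18883 genes passed (4 genes, 0.0159% higher and 0.0053% lower), and 9 members (34.6%) had an unadjusted P under 0.05, against 15.3% of all genes. The members' median slope was 0.12.

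The largest slopes were those of Hist1h2ak at 0.51 ± 0.16 (adjusted P = 0.150), Hist1h4d at 0.50 ± 0.16 (adjusted P = 0.147) and Hist1h4f at 0.48 ± 0.16 (adjusted P = 0.175). The largest negative ones were those of Hist1h2al at -0.16 ± 0.10, Hist1h2bc at -0.11 ± 0.07 and Hist1h1c at -0.08 ± 0.07. With DESeq2, Hist1h4d and Hist2h4 were called, among 383 of 18516 genes. With the other measures as terms, the members' median was 0.00. On the 117 small nucleolar RNA rows alone, 2338 genes were called and none of the members, whose median was -0.10.

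The relations between the 3 measures were tested too. The rRNA and small RNA shares, on the log2 scale, had Pearson's r = 0.44 (two-sided permutation test, P = 0.0508, adjusted 0.152) and Spearman's rho = 0.45 (P = 0.0461, adjusted 0.138) over the 20 tumors. Without the 2 tumors farthest in rRNA share r was 0.49, and it was 0.24 within Lo and 0.61 within Hi. The replication score had r = -0.14 with the rRNA share (P = 0.548, rho = -0.22) and r = -0.07 with the small RNA share (P = 0.778, rho = -0.08). Within Hi its r with the rRNA share was -0.54. None of the 3 relations passed after adjustment.

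Between Lo and Hi tumors no histone gene passed, and of all 18883 genes 0% did (0 by edgeR with 1045 at an unadjusted P under 0.05, and 1 by DESeq2). Of the members, 9 (34.6%) had an unadjusted P under 0.05 by edgeR, against 5.53% of all genes, and 10 (38.5%) by DESeq2, against 5.69%. The median log2 difference, Lo minus Hi, was 0.36 over the members against 0.001 over all genes, and 23 members were positive. The lowest adjusted P was 0.593. In all 26 members the 2 groups overlapped, and the share of all genes that overlap was not counted. The lists of replication genes and chaperones had medians of 0.06 and -0.02, the mitosis genes 0.22 and the other RNAs without a tail 0.36, with no gene of these lists called. The mitosis score averaged 0.45 ± 0.59 (SD) in Lo and -0.37 ± 0.97 in Hi, and its part in the histone difference was not tested.

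The largest differences belonged to genes that had risen with the rRNA share. Hist1h2bm was higher in Lo by 1.21 ± 0.32 on the log2 scale, Hist1h4f by 1.005 ± 0.32, Hist1h3e by 0.95 ± 0.25 and Hist1h4d by 0.82 ± 0.32, none past the adjusted threshold, and these 4 were named here after their values were seen. Hist1h1c differed by -0.01 ± 0.16. The summed members ran from 84.7 through 129.4 to 174.7 TMM-scaled CPM in Lo and from 91.8 through 116.3 to 155.8 in Hi.

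The rRNA share was set beside the labels as well. The mean log2 share was 4.11 ± 0.62 (SD, n = 9) in Lo and 3.75 ± 0.32 (n = 11) in Hi, a difference of 0.36 (two-sided exact permutation test, P = 0.108, adjusted over 3 measures 0.194). On the untransformed share, an alternative chosen after the data were seen, the exact P was 0.0387 (adjusted 0.116). Neither passed after adjustment. The small RNA share differed by 0.22 on the log2 scale (exact P = 0.129) and the replication score by 0.30 (exact P = 0.388).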

How the data were processed

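RNA from 20 tumors was sequenced after poly(A) selection, and reads trimmed to 100 bases were aligned to mm10 (MapRseq 2.0.0). The submitters' notes name TopHat2 2.0.12 and featureCounts 1.4.4. The authors deposited a table of raw counts, with a row for each gene and a column for each tumor and no tumors merged. The annotation release, strand setting and treatment of reads that fit several genes are not given in the sources used here. Total counts of 38765682 to 65465755 per tumor set the precision, and reads carry no molecular identifiers.

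CPM, RPKM on plain totals and the counted exon length, and TMM factors were computed here. In R 4.3.3, edgeR 4.0.16 (filterByExpr by group, TMM, quasi-likelihood test, Benjamini-Hochberg adjustment over 18883 genes, threshold 0.05) was fitted to Lo against Hi and to 3 covariates, each per SD. An SE is the log2 value divided by the square root of F. DESeq2 1.42.0, other normalization, no filter, added terms, left-out tumors and other scores were alternatives. Permutation tests (100000 permutations, or exact) used Python 3.11.15 and scipy 1.17.1, and figures matplotlib 3.10.9.

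Members and lists were chosen with earlier results of these data known. Named members were, per type, the 3 of highest RPKM, those called between Lo and Hi, the 3 largest slopes in each direction and the 2 nearest the minimum on either side. Other genes were named from a set list. On simulated data for 18883 genes with 200 changed, the edgeR step recovered 161 slopes of 0.5 on the rRNA share with 13 false calls. It recovered 160 differences of 1 between Lo and Hi with 14, and 154 slopes of 0.5 on the replication score with 6. The largest member slope on that score was 0.27. The changed genes were drawn from all levels and simulated independently, so these rates do not describe the members. Stem-loops came from GENCODE M21 transcripts and promoters from RefSeq. Each tumor came from its own mouse, and the study's methods say that all the RNA was handled and sequenced together. The libraries were divided over sequencing lanes, and which tumors shared a lane is not given in the sources used here. P values measure the spread between tumors.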

Additional observations from a re-analysis of the deposited data

Results flagged for a closer look

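Among the 26 histone genes, their sum and the 3 measures, 30 sets of 9 Lo values were searched for a tumor apart from the rest, and 1 was found. Hist1h2bc stood at 22.03 CPM in Lo tumor 8, where the next Lo tumor had 16.005 and the lowest 10.3, so that the gap took 0.514 of the range, above Dixon's critical value at the 95% level for 9 values. Chance marks about 1 in 20 such sets, and the 11 Hi tumors were not searched. In Hi the highest value of Hist1h2bc was 21.9 CPM, in Hi tumor 7, and the next Hi tumor had 15.6.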

How the results depend on the processing

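RLE normalization and library sizes without the rRNA locus and the histone members moved none of the counts of called genes by more than 1.5 times. The fits without a filter called 1 gene between Lo and Hi and 75 on the small RNA share. DESeq2 called 1 gene between Lo and Hi, 461 on the replication score, 135 on the rRNA share (9 members) and 383 on the small RNA share (2 members). With the replicate number as a block (replicate block, 9 pairs), Lo against Hi gave 0 genes, 0 members called and a median of 0.28. At an unadjusted P under 0.05 there were 7 of the 26 members, and 872 of all 18883 genes. The numbers did not pair the tumors, since same-numbered tumors had r from -0.42 to 0.21 with 3 of 9 above 0.1, and 1 Lo tumor was closest to its own number.

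On the replication score, 44 genes were called without Hi tumors 8 and 4, the 2 farthest tumors, 66 on a score of MCM2-7 alone, 0 within Lo and 34 within Hi. With the other measures as terms 248 of 18883 genes were called, 1 member among them. The members' median was -0.023 within Lo and -0.0064 within Hi. On a score of mitosis genes it was 0.14 with 7 members (26.9%) at an unadjusted P under 0.05, against 8.97% of all genes. The sign turned for Hist1h2al within Lo (-0.064), Hist1h4d on the mitosis score (0.20) and Hist2h3c1 without the farthest tumors (0.039), none called.

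On the rRNA share, 7 genes and 1 member were called with the label as a term, 3 and 1 without Lo tumors 1 and 6, 5 and 0 within Lo, and 0 and 0 within Hi, where the members' median was 0.085. Leaving out each tumor in turn gave 11 to 23 genes, 3 to 9 members and a median of 0.20 to 0.27. In these fits Hist1h1c ran from -0.066 to 0.077, Hist1h2bc from -0.11 to 0.014, Hist1h4i from -0.0013 to 0.14 and Hist2h3c1 from -0.051 to 0.015. Without Lo tumors 1 and 6 the sign turned for Hist1h1c (-0.14), Hist1h4i (-0.056), Hist2h3c1 (0.046) and Hist2h3c2 (-0.026). Within Hi it turned for Hist1h1c (-0.18), Hist1h1d (-0.32), Hist1h2bg (-0.22), Hist1h2bm (-0.076), Hist1h4h (-0.072), Hist1h4i (-0.29), Hist2h3c1 (0.045), Hist2h3c2 (-0.033) and Hist3h2a (-0.066). Hist1h2bc had 0.040 with the other measures as terms and 0.0069 within Lo. Of these, Hist1h2bm was called over all 20 tumors.

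On the small RNA share, 8 genes were called with the label as a term, 0 without Hi tumors 7 and 11 (median of the members 0.28), 1 with the other measures as terms (median 0.0010), 2338 on nucleolar rows alone (median -0.10), 0 with the share not logged, 0 within Lo (median 0.24) and 60 within Hi. Without Hi tumors 7 and 11, Hist1h1c had 0.18 and Hist1h2bc 0.087. Within Lo, Hist1h1c had 0.33, Hist1h2al 0.17 and Hist1h2bc 0.24. On nucleolar rows alone, Hist1h2ak had -0.070, Hist1h4d -0.31 and Hist1h4f -0.22. The relation of replication score and small RNA share turned to r = 0.0099 without the 2 farthest tumors. A minimum of 1 CPM would have left 19 members. Counts of 4 to 73 per tumor for Hist1h2ak show how little depth lies behind the lowest members. Within-label fits, single left-out tumors for the rRNA share and the shares not logged between Lo and Hi were chosen after seeing the data. The cause of each change was not tested.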
